A study of Mus musculus with 24 samples.

Results

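The 9 genes described here are Nkx2-1, Lhx6, Sox6, Satb1, Maf, Prox1, Adarb2, Nr2f2 and Npas1. They were chosen by symbol as genes of the interneuron lineages, and each symbol matched 1 of the 54235 features counted. They were followed in interneurons of mouse primary motor cortex and dorsal striatum by single-cell 3' RNA sequencing. Mice of the cortex groups carried Fos-CreER::Ai9, and mice of the striatum groups carried Arc-CreER::Ai9. In both lines the recombinase follows an activity-induced gene and Ai9 supplies a tdTomato reporter, so region and driver line cannot be told apart, and every group received 4-hydroxytamoxifen. The stages were early (2 days of training on a forelimb reaching task), late (8 days) and untrained control, with tissue taken 3 days after labelling. Each of the 6 groups of region and stage held 2 pools, and each pool combined tissue of 2 mice, so the pool was the unit of replication (6 pools per region). The labels do not give the age of the mice. Reporter-positive and reporter-negative cells were not separated.

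Cortical interneurons are born outside the cortex, in the ganglionic eminences of the embryonic ventral forebrain, and reach it by long migration. The medial eminence is marked by Nkx2-1 and gives rise to parvalbumin (Pvalb) and somatostatin (Sst) interneurons, and the caudal eminence gives rise to most Vip, Lamp5 and Sncg interneurons. Nkx2-1 switches on Lhx6, and Sox6 and Satb1 act after Lhx6 in the maturation of the medial lineage. Prox1, Nr2f2 and Adarb2 are widely used as signs of caudal origin. Cells bound for cortex are known to switch Nkx2-1 off on their way, while many cells bound for striatum keep it. Against the working name of the group, Adarb2 is not a transcription factor: it encodes a brain protein of the family of RNA-editing adenosine deaminases. The other 8 genes encode DNA-binding proteins.

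Of 98612 cells analysed, 47985 came from cortex and 50627 from striatum. Interneuron-like cells numbered 4447 in cortex and 2184 in striatum. The 23 matrices held 5260446 to 30470621 unique molecular identifiers (UMIs, each standing for 1 captured RNA molecule) per library. The left library of cortex control replicate 1 held 541 barcodes, and striatum control replicate 1 rested on its left hemisphere alone. By the barcodes they shared, the pools fell into 2 classes. They are called kit A (control replicate 1 and late replicate 1 of each region) and kit B (the other 8 pools). No early pool was of kit A. The labels name 2 kit versions but assign none to a library, so these names are inferred from barcode sharing alone. Any other batch that the kit A pools share would carry the same name. Interneurons were clustered with the 9 genes left out, and clusters were named from other markers, so that a level by subclass is a description of cells sorted without these genes. Genes that lie inside a member on the same strand, such as Gm48259 in Adarb2 and C230085N15Rik in Satb1, were not left out. Some signal of those 2 members could thus have entered the clustering. The clusters gave 277 Pvalb-type, 525 Sst-type, 1306 Vip-type, 1316 Lamp5-type and 486 Sncg-type cells in cortex. In striatum they gave 559 Pvalb-type, 873 Sst-type, 414 Th-type and 224 cholinergic cells. The gene that gives the name was present in Pvalb-type, Sst-type, Vip-type and Lamp5-type cells. Pvalb stood at 2206 CPM (UMIs of a gene per 1000000 UMIs of the summed cells) in cortical and 525 CPM in striatal Pvalb-type cells. Sst stood at 17598 CPM in cortical and 37126 CPM in striatal Sst-type cells, and Vip at 15904 CPM in cortical Vip-type cells. Lamp5 stood at 718 CPM in cortical Lamp5-type cells. Some other listed markers did not follow the names. Of the Pvalb-type markers, Pthlh stood at 66.8 CPM in cortical Pvalb-type and 191 CPM in Vip-type cells, and Syt2 at 5.32 CPM in striatal Pvalb-type and 113 CPM in Th-type cells. Npy, listed for Sst-type cells, stood at 9419 CPM in cortical Sst-type and 12727 CPM in Lamp5-type cells. Kit classes A and B filled different clusters of some subclasses. In cortex, Lamp5-type cluster 1 held 16 kit A and 761 kit B cells, and cluster 2 held 336 and 203. Vip-type cluster 4 held 12 kit A and 375 kit B cells, and cluster 0 held 373 and 546. In striatum, Sst-type cluster 2 held 403 kit A and 3 kit B cells against 18 and 449 in cluster 0, and Pvalb-type cluster 5 held 203 and 3 against 16 and 337 in cluster 3.

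In cortex, 6 of the 8 genes with enough counts split the subclasses by lineage. Lhx6, Sox6 and Satb1 stood higher in every Pvalb-type and Sst-type pool than in every Vip-type and Lamp5-type pool, and Prox1, Adarb2 and Nr2f2 stood lower. Over all 11798 genes measured the same way, 2.72% showed no overlap between these pools. Lhx6, Sox6, Prox1 and Adarb2 were counted only through the subclasses where they were high, so they had little room to overlap. The genes are also known for this pattern, so the count describes how sharply these cells followed it and is no test. Npas1 and Maf overlapped between the groups, and Nkx2-1 was too low in cortex to be counted. Of 17 other lineage regulators measured the same way, 4 did not overlap, and all 4 (Sp8, Nr2f1, Nfib and Nfix) stood lower in Pvalb-type and Sst-type cells. Sp8 too was counted only through the subclasses where it was high.

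**Figure D1:**
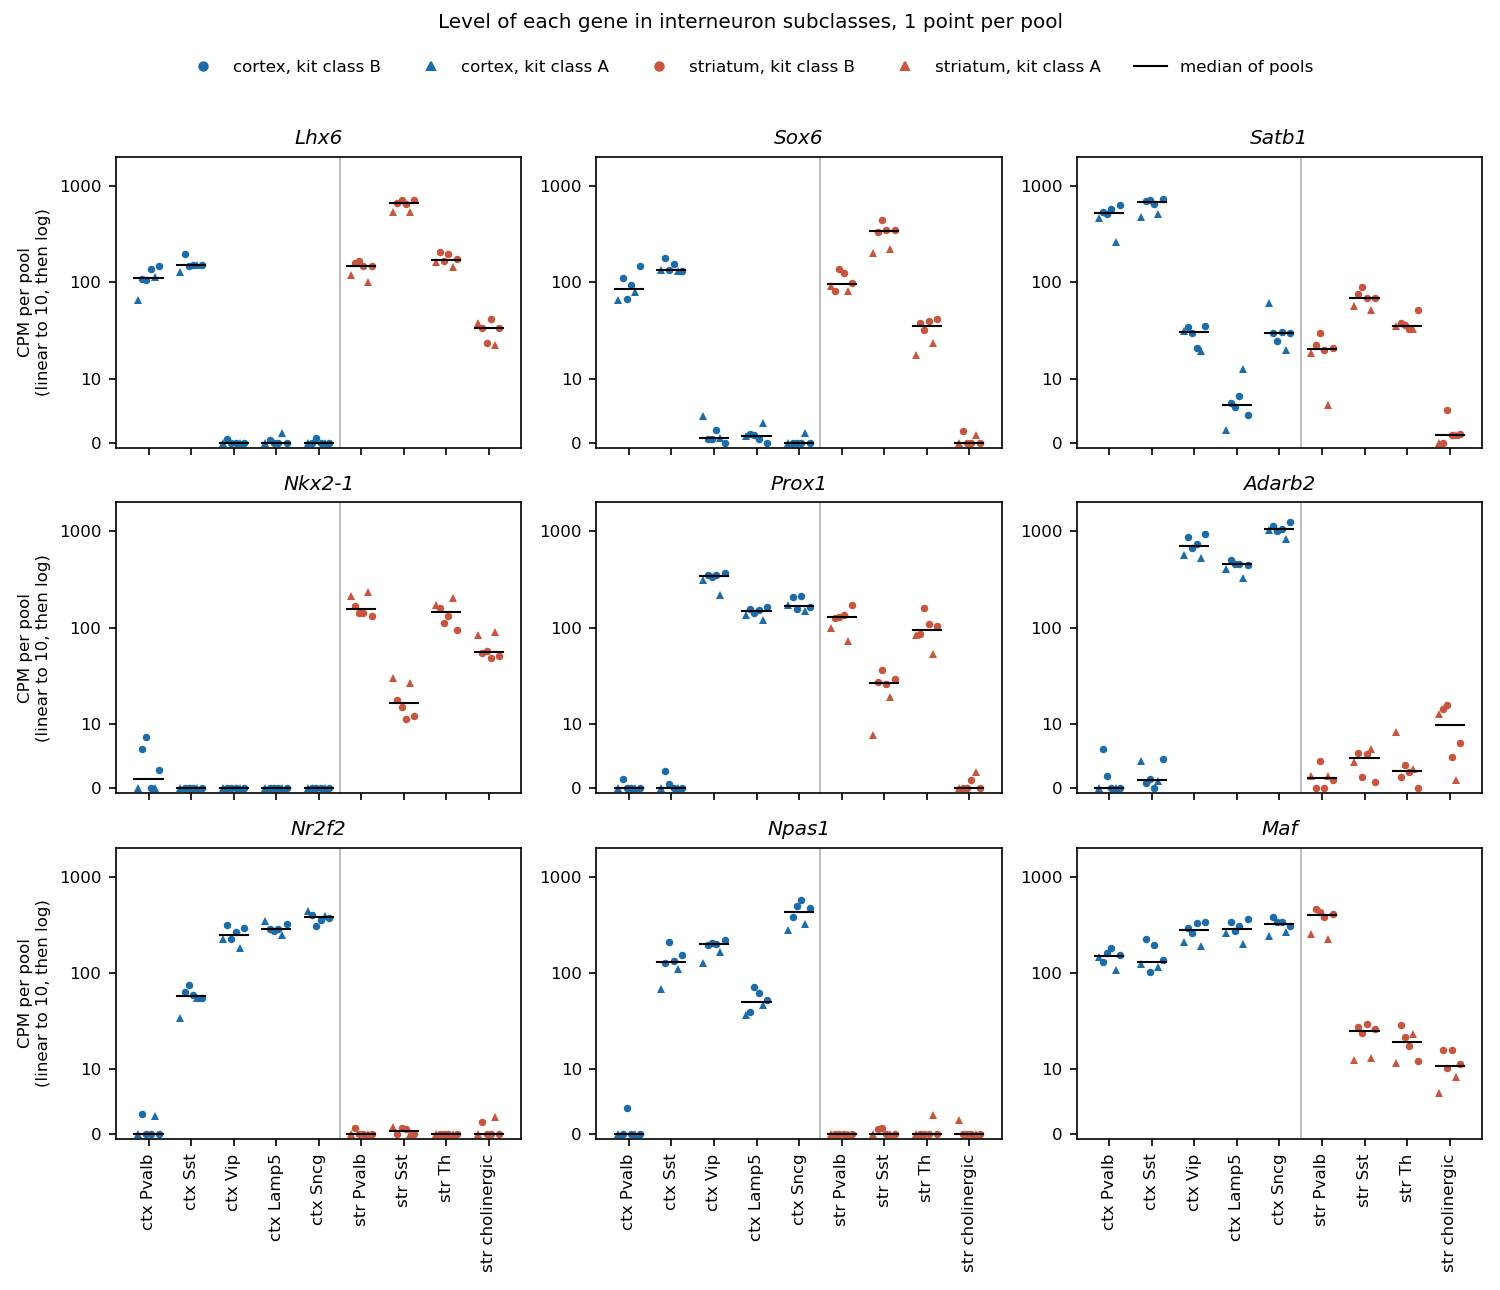
Level of each gene in CPM per pool (vertical axis, linear to 10 and logarithmic above) in 5 cortical (blue) and 4 striatal (red) interneuron subclasses; circles are kit B pools, triangles kit A pools and lines the median of 6 pools. Lhx6 and Sox6 lie near 0 in cortical Vip-type, Lamp5-type and Sncg-type cells, Prox1 and Adarb2 lie near 0 in cortical Pvalb-type and Sst-type cells, and Nkx2-1 stands above 90 CPM in every pool of striatal Pvalb-type and Th-type cells.

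Nkx2-1 (GRCm38 chr12:56531958-56536908, minus strand), the homeobox factor that sets medial eminence identity, was nearly absent from cortical interneurons. No UMI was found in cortical Sst-type, Vip-type, Lamp5-type or Sncg-type cells, and the count of 0 allows at most 0.568 CPM in Sst-type cells. Cortical Pvalb-type cells held 9 UMIs over 6 pools. In striatal Pvalb-type cells the 6 pools lay between 133 and 235 CPM, with a median of 155 CPM. The Th-type pools, of striatal interneurons that carry tyrosine hydroxylase RNA, lay between 93.7 and 203 CPM (median 147). Cholinergic cells, which are known to keep Nkx2-1 in the adult, lay between 48.4 and 89.2 CPM (median 56.1). Striatal Sst-type cells were lowest, between 11.4 and 29.9 CPM (median 16.4). Within striatum the order was thus Pvalb-type and Th-type, which overlapped, then cholinergic, then Sst-type, with no overlap between these 3 steps. In all 4 striatal subclasses both kit A pools stood above all 4 kit B pools (212 and 235 against 133 to 168 CPM in Pvalb-type cells), and the part of the kit in this was not tested. Cells of at least 2000 UMIs were thinned to 2000 UMIs, and shallower cells were left out. A median of 29.3% of striatal Pvalb-type cells then had an Nkx2-1 UMI (539 of 559 cells used), against 72.9% of all of them before thinning. In striatal microglia-like cells, which should lack the gene, the thinned median was 0%, from 2012 of 4990 cells. Over all cells of each class, the median depth was 1824 UMIs in microglia-like and 7465 UMIs in Pvalb-type cells.

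Lhx6 (GRCm38 chr2:36081953-36105408, minus strand), the LIM-homeobox factor that Nkx2-1 activates, divided the cortical subclasses almost completely. Its pools in cortical Sst-type cells lay between 127 and 197 CPM (median 150), and those in Pvalb-type cells between 65.4 and 147 CPM (median 110). All Vip-type cells together held 1 UMI, all Lamp5-type cells 3 and all Sncg-type cells 1. With cells assigned by a single marker gene in place of clusters, the Lamp5-type median of Lhx6 was 13.9 CPM in place of 0, and that of Nkx2-1 2.92 CPM in place of 0. In striatum every subclass carried Lhx6. Sst-type pools lay between 536 and 716 CPM (median 658), above every other subclass of either region. The Th-type pools lay between 144 and 208 CPM (median 171), and the Pvalb-type pools overlapped them at 101 to 166 CPM (median 149). Cholinergic pools, at 22.6 to 41.2 CPM (median 33.8), lay below all of these.

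Sox6 (GRCm38 chr7:115470872-116038796, minus strand), an SRY-box factor that works after Lhx6 in migration and maturation, was high in the same cortical subclasses. Cortical Sst-type pools lay between 131 and 180 CPM (median 133), and Pvalb-type pools between 65.4 and 149 CPM (median 85.8), so that the 2 subclasses overlapped. Vip-type cells held 7 UMIs in all, Lamp5-type cells 13 and Sncg-type cells 1. In striatum Sox6 followed Lhx6 in Sst-type cells, at 200 to 439 CPM (median 337). Pvalb-type pools lay between 81.7 and 137 CPM (median 94.9). In Th-type cells, where the Lhx6 pools overlapped those of Pvalb-type cells, Sox6 lay between 17.5 and 41.6 CPM (median 35.1), below every striatal Pvalb-type pool. Cholinergic cells held 2 Sox6 UMIs in 6 pools.

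Over the 30 sums of a cortical pool and subclass, Lhx6 and Sox6 were each other's most similar gene among 8635 genes (Pearson r = 0.995 of log2(CPM + 10)). The value rests largely on the contrast of Pvalb-type and Sst-type sums with the others, where both genes were nearly absent. The 30 sums share 6 pools and their libraries, and the value is a description. The stretch before the start of each gene is shown because the pair was high in the same cortical subclasses. The 250 bases are from RefSeq (GRCm38.p6), on the minus strand, 5′ to 3′, and none of the 3 motifs searched is present, so no base is in capitals.
Lhx6, chr2:36105409-36105658: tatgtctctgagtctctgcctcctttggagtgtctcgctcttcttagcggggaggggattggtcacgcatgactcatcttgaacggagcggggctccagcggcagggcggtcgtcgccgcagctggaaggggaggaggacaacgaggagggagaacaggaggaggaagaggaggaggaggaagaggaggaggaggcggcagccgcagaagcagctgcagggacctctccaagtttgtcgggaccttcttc
Sox6, chr7:116038745-116038994: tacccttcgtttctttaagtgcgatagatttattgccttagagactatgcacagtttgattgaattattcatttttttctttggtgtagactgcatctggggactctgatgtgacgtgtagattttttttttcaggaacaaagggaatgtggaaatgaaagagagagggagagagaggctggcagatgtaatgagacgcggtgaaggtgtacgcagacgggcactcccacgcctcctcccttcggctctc
The motifs, searched on both strands, were CAAGTG (the core known for Nkx2 factors), TAATTA (a homeobox core, its own reverse complement) and AACAAT (a Sox core), and no window printed here holds more than 1 match. Of 32851 windows of 250 bases, 11.6% held CAAGTG, 4.84% TAATTA and 9.42% AACAAT. Lhx6 has 3 annotated starts and Sox6 has 6, 1 other Lhx6 window held AACAAT, and of the other Sox6 windows 1 held AACAAT and 1 held CAAGTG. A match is a run of letters and not a known binding site, and an absent match says only that these letters are not in this window.

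Satb1 (GRCm38 chr17:51736187-51833290, minus strand), a chromatin organiser needed for Sst interneuron maturation, was high in the medial lineage of cortex and low in that of striatum. Cortical Sst-type pools lay between 475 and 730 CPM (median 674), and Pvalb-type pools between 259 and 635 CPM (median 525). Vip-type pools lay between 19.5 and 34.8 CPM (median 30.7), Sncg-type pools between 20.0 and 61.7 CPM (median 29.9), and Lamp5-type pools between 2.04 and 12.5 CPM (median 5.92). Of these values, the Lamp5-type pools overlap with the level in cortical microglia-like cells (6.10 to 12.7 CPM), so Lamp5-type cells did not stand above that class. In striatum the highest Satb1 pools, of Sst-type cells, lay between 51.2 and 89.8 CPM (median 68.3). Striatal Th-type pools lay between 32.4 and 52.0 CPM (median 35.4), and Pvalb-type pools between 5.84 and 30.0 CPM (median 20.3), of which the lowest lay within the range of striatal microglia-like cells (5.37 to 8.95 CPM). Cholinergic cells held 5 UMIs. Outside interneurons Satb1 was also present in cortical glutamatergic neurons, at 134 to 188 CPM (median 173).

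Maf (GRCm38 chr8:115682942-115707794, minus strand), a bZIP factor that helps set the balance of Sst and Pvalb cells from the medial eminence, did not follow the lineage split. Its cortical medians were 151 CPM in Pvalb-type cells (range 108 to 183), 131 in Sst-type (103 to 226), 277 in Vip-type (189 to 336), 288 in Lamp5-type (200 to 366) and 323 in Sncg-type cells (241 to 384). Among the striatal subclasses tested it marked a single one: Pvalb-type pools lay between 228 and 465 CPM (median 396). The Sst-type pools lay between 12.4 and 29.7 CPM, Th-type pools between 11.7 and 29.0 CPM (median 19.5), and cholinergic pools between 6.36 and 16.0 CPM (median 10.8). Microglia-like cells, which carry Maf themselves, stood at a median of 292 CPM in cortex and 290 CPM in striatum, so for this gene the comparison class without it is the spiny projection neuron, at a median of 4.01 CPM.

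Prox1 (GRCm38 chr1:190118035-190170714, minus strand), a homeobox factor that caudal eminence cells need for migration and maturation, had the opposite cortical pattern to Lhx6. Vip-type pools lay between 216 and 367 CPM (median 343). Sncg-type pools lay between 149 and 211 CPM (median 168) and Lamp5-type pools between 119 and 164 CPM (median 147), which overlap each other and not the Vip-type pools. Pvalb-type cells held 1 Prox1 UMI and Sst-type cells 4, below the level in microglia-like cells (5.39 to 15.5 CPM). In striatum the same gene was present in medial-type cells. Pvalb-type pools lay between 72.0 and 171 CPM (median 128) and Th-type pools between 52.9 and 161 CPM (median 94.6). The Sst-type pools lay between 8.25 and 36.1 CPM (median 26.5), and cholinergic cells held 3 UMIs. The antisense gene Prox1os, with 1810 UMIs in interneurons against 6218 of Prox1, overlaps the start of Prox1 from base 190170296 on. Only reads within that shared stretch, up to base 190170714, need the strand to be told apart. The strand setting of the authors' counting is not given in the sources used here.

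Prox1 and Nkx2-1 had 4 and 0 UMIs in cortical Sst-type cells, and both stood at or above 52.9 CPM in every pool of striatal Pvalb-type and Th-type cells. Their windows before the start are shown for that reason. Both come from RefSeq (GRCm38.p6), on the minus strand, 5′ to 3′, with matches to the motifs above in capitals.
Nkx2-1, chr12:56536909-56537158: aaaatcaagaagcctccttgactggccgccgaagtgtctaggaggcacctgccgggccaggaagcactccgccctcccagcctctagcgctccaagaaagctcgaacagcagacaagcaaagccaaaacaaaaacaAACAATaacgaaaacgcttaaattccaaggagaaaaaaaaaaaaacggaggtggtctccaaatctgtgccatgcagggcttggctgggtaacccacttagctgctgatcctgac
Prox1, chr1:190170828-190171077: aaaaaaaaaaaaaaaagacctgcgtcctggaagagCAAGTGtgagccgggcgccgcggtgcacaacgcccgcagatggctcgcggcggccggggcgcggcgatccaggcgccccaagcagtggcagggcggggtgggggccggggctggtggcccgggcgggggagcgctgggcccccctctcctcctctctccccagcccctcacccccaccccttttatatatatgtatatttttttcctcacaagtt
The Nkx2-1 window held 1 Sox core (AACAAT), and the Prox1 window held 1 core of the Nkx2 kind (CAAGTG). Windows with CAAGTG made up 11.6% and windows with AACAAT 9.42% of all windows. The other start of Prox1 held no match. Of the other genes, Adarb2 had 1 window with TAATTA, Nr2f2 and Npas1 had a single window each without a match, and 1 of 5 Satb1 windows held CAAGTG.

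Adarb2 (GRCm38 chr13:8202866-8768747, plus strand) marked the caudal subclasses of cortex. Sncg-type pools lay between 824 and 1246 CPM (median 1046), Vip-type pools between 530 and 934 CPM (median 708) and Lamp5-type pools between 331 and 506 CPM (median 454). Pvalb-type cells held 5 UMIs and Sst-type cells 9. In the 4 striatal subclasses no pool exceeded 15.6 CPM, and the highest median was 9.88 CPM, in cholinergic cells. Spiny projection neurons of the striatum stood at a median of 26.1 CPM, and their lowest pool lay above every pool of the 4 striatal interneuron subclasses. The annotation places Gm48259 (6316 UMIs in interneurons against 17241 of Adarb2) inside Adarb2 on the same strand, and its profile over the cortical sums was the most similar of all genes (r = 0.994), so that counts of the pair may share transcripts.

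Nr2f2 (GRCm38 chr7:70351944-70366735, minus strand), the nuclear receptor COUP-TFII, was shared by the caudal subclasses and by a fraction of Sst-type cells. Sncg-type pools lay between 305 and 443 CPM (median 381), Lamp5-type pools between 248 and 344 CPM (median 285) and Vip-type pools between 183 and 317 CPM (median 245). The Sst-type pools, at 33.9 to 75.0 CPM (median 57.5), lay below all of them. Pvalb-type cells held 4 UMIs. The highest level, 484 to 803 CPM (median 715), was in cortical cluster 3, a group of 424 cells led by Penk and Crh that met no subclass rule. None of the 4 striatal subclasses tested (Pvalb-type, Sst-type, Th-type and cholinergic) held more than 3 UMIs of Nr2f2, and Th-type cells held 0.

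Npas1 (GRCm38 chr7:16455721-16477728, minus strand), a bHLH-PAS factor that acts as a repressor in cortical interneurons, crossed the lineage boundary. Sncg-type pools lay between 281 and 573 CPM (median 430). Vip-type pools at 128 to 219 CPM (median 198) overlapped with Sst-type pools at 67.9 to 211 CPM (median 130). Lamp5-type pools lay between 36.8 and 70.8 CPM (median 49.8), so that the highest of them overlapped the lowest Sst-type pool. With cells assigned by a single marker gene (at least 3 UMIs of exactly 1 of Pvalb, Sst, Vip and Lamp5) in place of clusters, the Lamp5-type median was 13.4 CPM. Pvalb-type cells held 2 UMIs. In striatum Npas1 was at 0 UMIs in Pvalb-type cells, 2 in Sst-type, 1 in Th-type and 1 in cholinergic cells.

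Within the medial lineage of cortex, 2 of 6 genes counted, Nr2f2 and Npas1, did not overlap between Pvalb-type and Sst-type pools, both lower in Pvalb-type cells. Over all genes that share was 10.9%. Nr2f2 and Npas1 held 4 and 2 UMIs in Pvalb-type cells and were counted only through Sst-type cells. They had little room to overlap, so the count is a description. Between Vip-type and Lamp5-type pools 4 of 6 did not overlap, and Satb1, Prox1, Adarb2 and Npas1 were all higher in Vip-type cells. There the share over all genes was 14.5%. The Vip-type and Lamp5-type values carry the cluster split by kit given above.

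Levels also differed between clusters inside a subclass (values over all pools with exact 95% Poisson intervals, which cover counting error only). Cortical Sst-type cells formed 3 clusters. Cluster 6, of 292 cells led by Spon1 and Rbp4, held 320 of the 321 Nr2f2 UMIs (112 CPM, 99.9 to 125) and 710 of the 765 Npas1 UMIs (248 CPM, 230 to 267) of the subclass. In cluster 9, of 138 cells led by Nos1 and Chodl, the marks of long-range Sst cells, both genes were at 0 UMIs, which allows 1.82 CPM. Cluster 9 also had the highest Sox6, at 217 CPM (195 to 241) against 106 CPM (94.6 to 119) in cluster 6. Satb1 ran the other way, at 300 CPM (274 to 328) in cluster 9 and 922 CPM (888 to 958) in cluster 6. Maf was high in cluster 10, of 95 cells led by Pdyn and Cbln4, at 587 CPM (534 to 643) against 74.0 CPM (64.4 to 84.7) in cluster 6. The pools did not overlap between these clusters. For Satb1 the pools of cluster 6 lay between 741 and 1079 CPM and those of cluster 9 between 233 and 463 CPM, and for Sox6 between 77.3 and 136 CPM in cluster 6 and between 159 and 301 CPM in cluster 9. Lhx6 was even across the 3 clusters, at 159 CPM (145 to 174), 147 CPM (129 to 167) and 175 CPM (147 to 207).

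Cortical Pvalb-type cells had a small second cluster, number 13, with 32 cells led by C1ql1 and Pthlh. All 9 cortical Pvalb-type Nkx2-1 UMIs lay in it (32.2 CPM, 14.7 to 61.1), and the 245 cells of cluster 7 held none, which allows 1.21 CPM. Satb1 was 32.2 CPM (14.7 to 61.1) in cluster 13 and 523 CPM (495 to 552) in cluster 7. Maf stood at 336 CPM (271 to 411) in cluster 13 and 119 CPM (106 to 133) in cluster 7. Relative to cluster 7, cluster 13 thus had more Nkx2-1 and Maf and less Satb1, as striatal Pvalb-type cells had relative to cortical ones. Prox1 had 1 UMI in cluster 13. The cluster held 3 to 8 cells per pool, with Nkx2-1 at 0 in 3 of 6 pools and Satb1 between 0 and 135 CPM, so no test was made.

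A second exception to the lineage split was cortical cluster 11, with 65 cells led by Hapln1, Igfbp2, Id2 and Lamp5. It was left without a name because only Lamp5 and Id2 of the Lamp5-type markers passed. Lhx6 stood at 238 CPM (199 to 282) and Adarb2 at 192 CPM (157 to 232) in the same cluster. Nkx2-1 reached 38.4 CPM (23.8 to 58.7; 21 UMIs, none in 1 pool), Prox1 58.5 CPM (40.0 to 82.6) and Maf 481 CPM (425 to 543). Satb1 and Npas1 were at 0 UMIs, which allows 5.49 CPM. All 6 pools contributed, with 183 CPM of Lhx6 in the lowest and 104 CPM of Adarb2 in the lowest. At 2000 UMIs per cell, 16 of 61 cells had an Lhx6 UMI, 20 had an Adarb2 UMI and 5 had both. Among 1212 thinned Vip-type cells 1 had both, and among 1298 Lamp5-type cells 0. These counts are of joint detection at this depth, at which many cells that carry a gene show no UMI of it, and do not limit the share of cells that carry both. Lhx6 marks a kind of Lamp5 cell described in mouse cortex, and the mix of eminence genes in such cells is known.

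**Figure D2:**
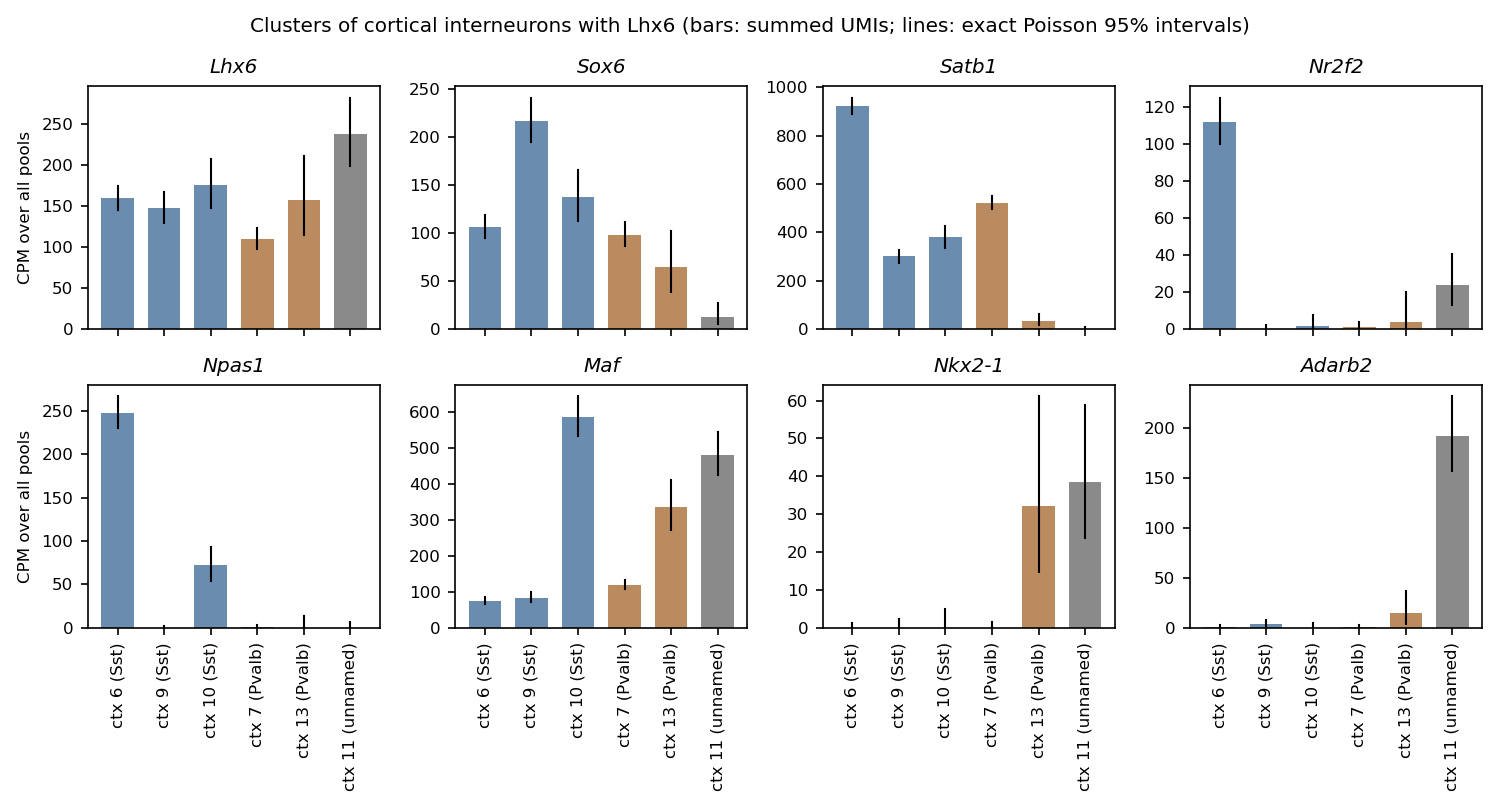
Level of 8 of the genes in CPM (vertical axis, linear from 0) in 6 cortical clusters with Lhx6: 3 Sst-type (blue), 2 Pvalb-type (brown) and the unnamed cluster 11 (grey). Bars are UMIs summed over all pools and lines are exact Poisson 95% intervals. Nr2f2 and Npas1 are concentrated in cluster 6, Nkx2-1 in clusters 13 and 11, and Adarb2 in cluster 11.

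The caudal subclasses were also split. In kit B pools, Lamp5-type cluster 2 (led by Cplx3 and Deptor) had Npas1 at 251 CPM (228 to 275), and cluster 1 (led by Lamp5 and Atp6ap1l) at 6.97 CPM (5.14 to 9.24). Nr2f2 was 634 CPM (598 to 672) in cluster 2 and 196 CPM (186 to 207) in cluster 1, and Adarb2 973 CPM (928 to 1019) against 335 CPM (322 to 349). Prox1 was alike in both, at 153 CPM (136 to 172) and 152 CPM (143 to 161). Among Sncg-type cells of kit B, cluster 5 had Npas1 at 626 CPM (595 to 658) and Nr2f2 at 478 CPM (451 to 506), and cluster 8 had them at 221 CPM (197 to 247) and 131 CPM (112 to 152). Maf ran the other way, at 278 CPM (258 to 300) in cluster 5 and 468 CPM (433 to 506) in cluster 8. These intervals come from 4 pools that share a kit class. In the 2 kit A pools, which put nearly all their Lamp5-type cells in cluster 2, Npas1 stood there at 37.9 and 47.4 CPM.

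In striatum 44 cells formed a Lamp5-type cluster, too few per pool for a test. They carried Adarb2 at 295 CPM, Prox1 at 105 CPM, Npas1 at 105 CPM, Nr2f2 at 88.9 CPM and also Lhx6 at 63.1 CPM. The same cells held Sst at 1574 CPM and Vip at 2712 CPM, beside Lamp5 at 231 CPM. The striatal libraries also gave 220 glutamatergic neuron-like cells, a class that cortex holds and striatum lacks.

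Genes whose cortical profile was most like that of a member came from the same 30 sums. For Lhx6 these were Sox6, then Chrm2, a muscarinic acetylcholine receptor (r = 0.975), and Cacna2d2, a calcium channel subunit (r = 0.971). Sox6 had Lhx6, Chrm2 (r = 0.976) and C230085N15Rik (r = 0.968). Satb1 had C230085N15Rik (r = 0.969), which lies inside Satb1 on the same strand, followed by Chrm2 (r = 0.964) and Lhx6 (r = 0.962). Prox1 had Sh3bgrl (r = 0.990), the chemokine Cxcl14 (r = 0.983) and Adarb2 (r = 0.981). After Gm48259, Adarb2 had Cxcl14 (r = 0.989) and Sh3bgrl (r = 0.984). Nr2f2 was nearest to Rph3a, a synaptic vesicle protein (r = 0.974), Ust (r = 0.966) and Rgs8 (r = 0.956). Npas1 was nearest to Fxyd6 (r = 0.950), Galnt14 (r = 0.949) and Cplx2 (r = 0.937), and Maf to Zbtb16 (r = 0.920), Dlx6os1 (r = 0.901) and Hdac9 (r = 0.898). For Nkx2-1, whose level missed the filter in every subclass, the nearest gene was Gpc4 with r = 0.778, before Capn2 and Mrs2 with 0.724 each.

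Several of the genes were not private to interneurons, as the map of all cell classes shows. Sox6 was highest, among named classes, in oligodendrocyte precursors, at 316 to 651 CPM in cortex (median 597) and 296 to 564 CPM in striatum (median 508). Adarb2 was present in the same cells, at a median of 166 CPM in cortex and 133 CPM in striatum. Nr2f2 was high in mural cells (medians of 409 and 415 CPM in cortex and striatum) and in fibroblast-like cells (377 and 478 CPM). Maf was highest in macrophages, with medians of 621 CPM in cortex and 757 CPM in striatum. Striatal neuroblast-like cells carried Adarb2 at a median of 133 CPM, Sox6 at 74.6 CPM, Prox1 at 69.2 CPM and Satb1 at 68.1 CPM. Lhx6 and Nkx2-1 were close to 0 in every class outside interneurons, with no median above 2.35 CPM for Lhx6 and 3.26 CPM for Nkx2-1.

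**Figure D3:**
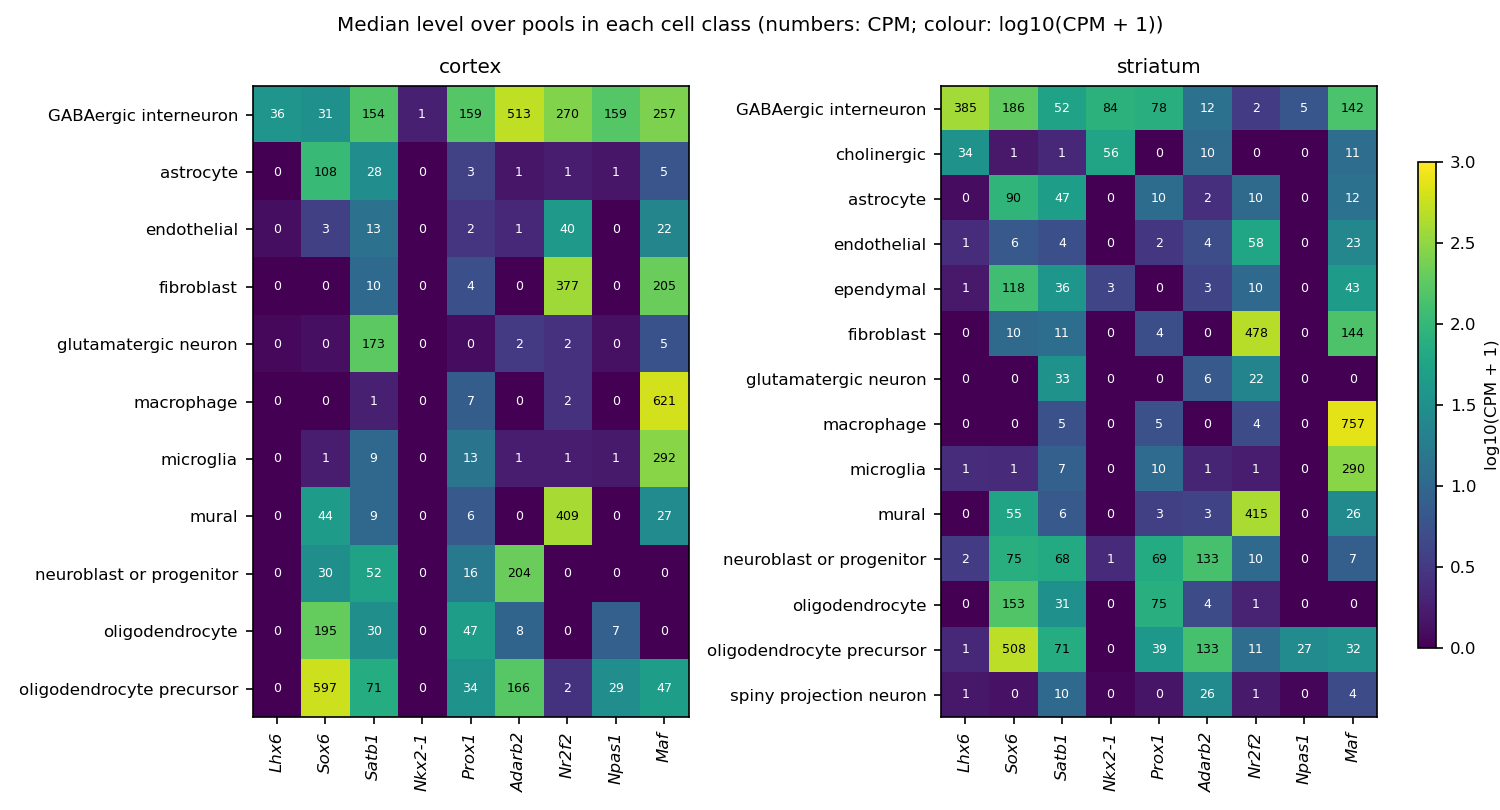
Median level over pools of the 9 genes (columns) in each named cell class (rows) of cortex (left) and striatum (right); printed numbers are CPM and colour is log10(CPM + 1). Lhx6 and Nkx2-1 stay at or below 3.26 CPM outside the interneuron and cholinergic rows, while Sox6 stands at 597 and 508 CPM in oligodendrocyte precursors and Maf at 621 and 757 CPM in macrophages.

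Cortical and striatal cells of the same subclass name were then compared over all 12 pools (edgeR quasi-likelihood test on summed UMIs, with stage and kit as covariates; a gene was called below 0.05 after Benjamini-Hochberg adjustment across all genes). Of the members tested, 4 of 6 were called in Pvalb-type cells, where 20.6% of all genes were called, and 8 of 8 in Sst-type cells, where 29.8% were. Prox1 and Nkx2-1 in Pvalb-type cells and Nkx2-1, Npas1, Nr2f2 and Prox1 in Sst-type cells, with at most 9 UMIs in 1 region, passed the filter on low counts only through the region where they were high and so had to differ. The counts are therefore a description and are not set against the share of all genes as support. Since the driver line differs between the regions, each difference is one of region and line together.

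**Figure D4:**
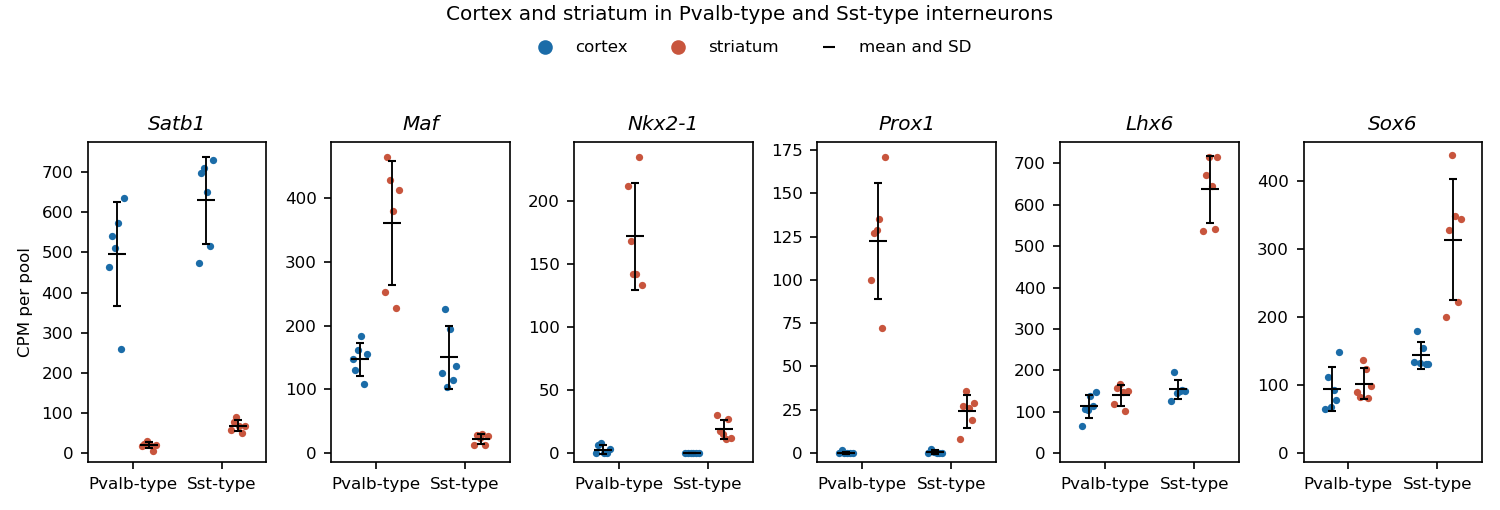
CPM per pool (vertical axis, linear) of 6 genes in Pvalb-type and Sst-type cells of cortex (blue) and striatum (red), with the mean and SD of 6 pools in black. Satb1 is higher in cortex in both subclasses, Maf is lower in cortex in Pvalb-type and higher in Sst-type cells, and Lhx6 stands apart between regions in Sst-type cells.

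Satb1 was higher in cortex in both subclasses. Pvalb-type cells averaged 497 ± 130 CPM in cortex and 19.5 ± 7.85 CPM in striatum (SD, n = 6 pools each), a log2 difference of 4.60 (SE 0.17, adjusted p = 9.87e-19). In Sst-type cells the means were 630 ± 108 and 68.5 ± 13.9 CPM, a log2 difference of 3.05 (SE 0.12, adjusted p = 9.53e-17). The pools of the 2 regions did not overlap in either subclass.

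Maf changed direction with the subclass. In Pvalb-type cells it averaged 147 ± 26.0 CPM in cortex and 361 ± 97.7 CPM in striatum (SD, n = 6), lower in cortex by a log2 difference of -1.36 (SE 0.13, adjusted p = 1.02e-09). In Sst-type cells it averaged 150 ± 49.1 CPM in cortex and 22.1 ± 7.58 CPM in striatum, a log2 difference of 2.59 (SE 0.17, adjusted p = 4.44e-12). A fit over both subclasses, with the pool as a block and chosen after seeing the data, gave a difference of 3.96 between the region effects (SE 0.17, adjusted p = 3.51e-30). In that fit 24.2% of all genes were called.

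Lhx6 was higher in striatal Sst-type cells, at 637 ± 81.4 CPM against 154 ± 23.2 CPM in cortex (log2 difference -2.20, SE 0.11, adjusted p = 2.45e-14). In Pvalb-type cells the means were 140 ± 24.8 and 112 ± 28.5 CPM, and the pools overlapped. That difference of -0.35 (SE 0.14, interval -0.62 to -0.08) missed the threshold at an adjusted p of 0.0742, and 5 of 21 alternatives called it, with adjusted p from 0.0339 to 0.374 over all 21. For Sox6 the log2 difference was -1.26 in Sst-type cells (SE 0.13, adjusted p = 9.04e-09; 314 ± 88.8 CPM in striatum, 144 ± 19.7 in cortex) and -0.16 in Pvalb-type cells (SE 0.17, interval -0.50 to 0.17, adjusted p = 0.579). The region effects differed between the subclasses by -1.82 for Lhx6 (SE 0.14, adjusted p = 1.05e-17), -1.12 for Sox6 (SE 0.16, adjusted p = 3.86e-08) and -1.49 for Satb1 (SE 0.19, adjusted p = 1.14e-09).

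Nkx2-1 and Prox1 were called in both subclasses, lower in cortex. For Nkx2-1 in Pvalb-type cells the log2 difference was -5.65 (SE 0.30, adjusted p = 2.46e-15; 2.81 ± 3.47 CPM in cortex, 172 ± 42.5 in striatum). The size of that difference rests on the 9 UMIs of cortical cluster 13: with cluster 7 alone cortex had 0 UMIs, the gene was called (adjusted p = 4.38e-15), and the fitted fold is not given because it depends on the prior count. Striatal Sst-type cells had 132 Nkx2-1 UMIs where cortical ones had 0, a level at least 32.8-fold higher (against 3 counts over the group; adjusted p = 6.48e-09). Prox1 had 573 UMIs in striatal and 1 UMI in cortical Pvalb-type cells, a ratio per UMI sequenced of 350 (95% counting interval 62.5 to 13839; adjusted p = 2.95e-16). In Sst-type cells Prox1 differed by -5.00 (SE 0.44, adjusted p = 8.28e-10; 0.562 ± 1.06 CPM in cortex, 24.2 ± 9.55 in striatum). Of the 6 striatal Sst-type pools, 5 lay above the striatal microglia-like cells (5.37 to 17.5 CPM) and the lowest, at 8.25 CPM, did not. All 6 lay above the striatal spiny projection neurons (0.134 to 0.823 CPM), so the reading depends on the class used for comparison.

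Nr2f2 and Npas1 went the other way in Sst-type cells. Cortex had 321 UMIs of Nr2f2 against 3 in striatum, a ratio of 144 (95% counting interval 48.7 to 701; adjusted p = 6.01e-14). For Npas1 the counts were 765 and 2, a ratio of 514 (142 to 4251; adjusted p = 1.24e-16). Nearly all cortical UMIs of both genes lay in Sst-type cluster 6, and cluster 9 held none. Both ratios thus depend on which clusters make up the cortical subclass. In Pvalb-type cells both genes had too few UMIs to be tested (4 and 1 for Nr2f2, 2 and 0 for Npas1), as did Adarb2 in either subclass.

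Striatal Sst-type cells carry Nos1, Chodl and Npy, as does cortical cluster 9, so that cluster alone was also set against them (chosen after seeing the data, in pools with at least 15 cells). All 6 members tested were called (17.4% of all genes were), but Nkx2-1 and Prox1 again passed the filter only through striatum and so had to differ, and the count is a description. Satb1 (2.13) and Maf (1.91) were higher in cortex, and Lhx6 (-2.13), Sox6 (-0.51, adjusted p = 0.00776), Prox1 (-3.64) and Nkx2-1 were lower. The Prox1 value rests on at most 4 cortical UMIs, all that cortical Sst-type cells held, so its size is uncertain. The Sox6 difference was thus smaller than the -1.26 of all Sst-type cells. Nr2f2 and Npas1, at 0 UMIs in cluster 9 and at most 3 in striatal Sst-type cells, did not pass the filter on low counts. The 12 differences called between regions, those that had to differ included, held without overlap within the kit A pools (2 against 2) and within the kit B pools (4 against 4).

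Other regulators of interneuron development moved in both directions. In Pvalb-type cells 5 of 16 regulators tested were higher in cortex, 7 lower and 4 not called, and in Sst-type cells 8 of 17 were higher, 5 lower and 4 not called. Over all genes 20.6% were called in Pvalb-type and 29.8% in Sst-type cells. St18, Lhx8 and Npas3 in Pvalb-type cells and Lhx8 in Sst-type cells, with at most 9 UMIs in 1 region, passed the filter only through the other region. The same holds for Nr2f1 in both subclasses and for Npas3 and Zeb2 in Sst-type cells. These had 14 to 36 UMIs in striatum, with no striatal pool above 7.39 CPM, and passed through cortex. Nfib in Sst-type cells, called lower in cortex, was also low there, with 20 UMIs against 158 in striatum. Its cortical pools had a median of 3.36 CPM and a highest value of 12.7 CPM. The counts of regulators called are therefore a description too. Etv1, an ETS factor, had a log2 difference of -4.57 in Pvalb-type cells (SE 0.16; 31.5 ± 8.26 CPM in cortex, 734 ± 103 in striatum). St18, a zinc-finger factor, had 616 UMIs in striatal and 0 in cortical Pvalb-type cells. The nuclear factor Nfix was lower in cortex (-3.62, SE 0.22), and Mef2c (2.13, SE 0.11) and the nuclear receptor Nr2f1 (4.66, SE 0.28) were higher. In Sst-type cells Mef2c (4.24, SE 0.15), Zeb2 (4.56, SE 0.20), Npas3 (4.44, SE 0.26) and Nr2f1 (4.25, SE 0.29) were all higher in cortex.

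Training stage was compared within each region and subclass, with the kit as covariate and 2 pools per stage. The 3 comparisons of a region share pools. No member was called in any of 6 comparisons, over 28 pairs of gene and subclass in cortex and 20 in striatum. By edgeR the share of all pairs called was 0.00211% for early against control, 0.0169% for late against control and 0% for late against early in cortex. In striatum it was 0.166%, 0.0349% and 0.0262% in the same order. DESeq2 also called 0 members in each. At an unadjusted p under 0.05, members counted 3, 1 and 1 of 28 pairs in cortex and 1, 0 and 1 of 20 in striatum. Over all genes the share of pairs at that level was 5.24%, 4.72% and 2.72% in cortex and 6.06%, 4.25% and 6.47% in striatum. The median absolute log2 difference over the cortical pairs was 0.25 for early against control, where it was 0.22 over all genes, and over the striatal pairs 0.14 against 0.23. Of the 22 other regulators, 17 were tested in cortex and 18 in striatum, and 0 were called in any stage comparison (edgeR), with 1, 8 and 0 of 75 pairs in cortex and 2, 4 and 6 of 48 in striatum at an unadjusted p under 0.05, to be read against the same shares.

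The 3 cortical pairs with a small unadjusted p for early against control were all of Npas1. In Lamp5-type cells control pools stood at 36.8 and 39.8 CPM, early pools at 70.8 and 62.6 CPM, and late pools at 46.7 and 52.9 CPM. In Sst-type cells control pools stood at 67.9 and 126 CPM, early pools at 211 and 134 CPM, and late pools at 110 and 153 CPM. In Sncg-type cells the values were 281 and 381, then 500 and 573, then 320 and 478 CPM. The early pools lay above both control pools in these 3 subclasses. None passed the adjustment over all genes: the log2 differences were 0.81 (SE 0.23, adjusted p = 0.802), 0.62 (SE 0.24, adjusted p = 0.998) and 0.53 (SE 0.19, adjusted p = 0.578). Vip-type cells stood at 128 and 194, then 203 and 202, then 166 and 219 CPM, so that the early pools were above the control pools there too, with a difference of 0.16 (SE 0.20, adjusted p = 0.979).

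The first control and first late pool are of kit A, and both early pools of kit B. Among kit B pools alone, Npas1 in Lamp5-type cells stood at 39.8 CPM in control, 70.8 and 62.6 CPM in early and 52.9 CPM in late pools. Npas1 also differed between the Lamp5-type clusters, whose share varied between pools. Inside cluster 2 the kit B pools stood at 192 CPM in control, 276 and 311 CPM in early and 225 CPM in late, from 42 to 56 cells each. In Sst-type cluster 6 they stood at 212, then 305 and 251, then 281 CPM. Within Sncg-type cluster 5 they stood at 505, then 670 and 691, then 629 CPM. In these 3 clusters, and in Lamp5-type cluster 1 (3.83 CPM in control, 7.01 and 14.3 CPM in early) and Sncg-type cluster 8 (175, then 219 and 315 CPM), the early pools of kit B were above its 1 control pool. Sst-type cluster 10 did not show this, at 75.4 CPM in control and 91.2 and 37.9 CPM in early pools, and Sst-type cluster 9 held no Npas1 UMI. The subclasses and clusters come from the same pools, so their shared order does not repeat the observation. With 1 control pool there is no test, and the clusters were looked at after the values were seen.

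**Figure D5:**
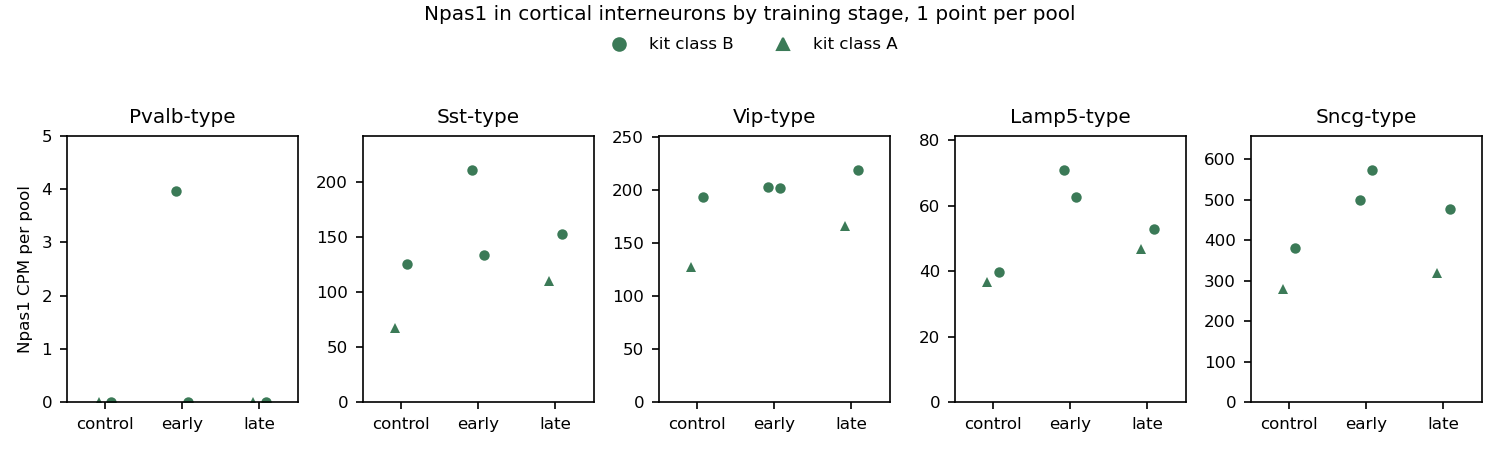
Npas1 level in CPM per pool (vertical axis, linear from 0) at each training stage in 5 cortical subclasses; circles are kit B pools and triangles kit A pools. In Lamp5-type, Sst-type, Sncg-type and Vip-type cells both early pools lie above both control pools, by the smallest margin in Vip-type cells (202 against 194 CPM), and no comparison passed the adjusted threshold.

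The other small unadjusted p-values belonged to Sox6 and Lhx6 in Pvalb-type cells. Striatal Sox6 stood at 90.5 and 82.1 CPM in control, 137 and 124 CPM in early and 81.7 and 99.3 CPM in late pools. Early pools were higher than the others, by a log2 difference of 0.59 against control (SE 0.22, adjusted p = 0.478) and of late against early of -0.50 (SE 0.23, adjusted p = 0.592). In cortex Sox6 stood at 65.4 and 112, then 67.4 and 93.1, then 78.5 and 149 CPM, and its late against early difference of 0.91 (SE 0.31) had an adjusted p of 1.000. Cortical Lhx6 stood at 65.4 and 107, then 105 and 137, then 114 and 147 CPM, with a late against control difference of 0.64 (SE 0.28, adjusted p = 0.980).

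The contralateral and ipsilateral hemispheres were compared in the 4 trained pools of each region, with the pool as a block. No member was called among 23 pairs in cortex, where 0.0182% of all pairs were called, nor among 11 pairs in striatum, where 0.0266% were (edgeR; DESeq2 also 0). None had an unadjusted p under 0.05. The widest differences were 0.37 on the log2 scale for Satb1 in cortical Vip-type cells and 0.29 for Lhx6 in striatal Pvalb-type cells, with medians of 0.10 and 0.07 where all genes had 0.12 and 0.13. Of the other regulators 0 were called in either region, with 4 of 56 pairs in cortex and 1 of 24 in striatum at an unadjusted p under 0.05, where all pairs gave 4.55% and 4.24%.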

How the data were processed

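Droplet 3' RNA libraries were made from 24 samples with 2 kit versions that the labels do not assign to libraries. The authors deposited counts of UMIs per gene and barcode, made with Cell Ranger 3.1.0 on GRCm38 (mm10), per the submitters' processing notes. The matrix headers give software version 3.0.2. Of 24 libraries 23 were used, and the matrix of the right striatum of control replicate 1 was not analysed here. Barcodes with at least 500 genes and 1000 UMIs and at most 20% mitochondrial UMIs were kept (103715 of 127901), and 5103 doublets called with Scrublet (scanpy 1.11.5; top 0.8% per 1000 barcodes) were removed. The largest number of barcodes shared by 2 libraries was 148, over 276 pairs. Pools were put in kit classes by the rate of shared barcodes.

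Cells were clustered per region (2000 variable genes, 40 components, 20 neighbours, Leiden resolution 1.5; interneurons again with 30 components at 0.25), without the 9 genes. Resolution and naming rules were settled after the clusters were seen. A name needed at least 3 of its markers, each in 20% of cells at 2-fold. UMIs were summed per pool and subclass (at least 20 cells in every pool) and tested with edgeR 4.0.16 (quasi-likelihood, TMM, kit as covariate), with 0.05 as the threshold after Benjamini-Hochberg adjustment across the genes of a subclass and comparison. The tests were also run on simulated data, and the outcome is not given here. The labels say that the 2 hemisphere libraries of a pool come from the same mice, and mice are pooled. The p-values of the stage and region tests thus measure the spread between pools. Where the pool was a block (hemispheres, and the fit over both subclasses), they measure the spread left after each pool's own level is removed. Poisson intervals and floors of 3 counts cover counting error only.

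The 9 genes, the 22 other regulators and the markers were chosen with earlier results of these data known. All 9 genes are named whatever their values, with the 3 genes of the most similar cortical profile each (log2(CPM + 10), genes of at least 20 CPM in a subclass) and the 5 other regulators of smallest adjusted p per region comparison. The result of 1 of these regulators is not reported here. Alternatives were DESeq2 1.42.0, other size factors, no low-count filter, no kit term, a replicate block, stricter cell filters, other cell assignments and each pool left out. Promoter windows are from RefSeq (GRCm38.p6). Promoters of 8 of the 9 genes matched, and Maf had no entry.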

Additional observations from a re-analysis of the deposited data

Results flagged for a closer look

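Among 54 groups of 6 pools examined for a pool far from the others, 4 had one, where chance gives about 1 in 20. Lhx6 in cortical Sst-type cells stood at 197 CPM in control replicate 2 (94 cells, 224 UMIs), and the other pools at 127 to 153 CPM. Satb1 in cortical Sncg-type cells stood at 61.7 CPM in control replicate 1, from 22 UMIs in 62 cells, and elsewhere at 20.0 to 30.3 CPM. Satb1 in striatal Th-type cells stood at 52.0 CPM in late replicate 2, from 30 UMIs in 71 cells, and elsewhere at 32.4 to 38.0 CPM. Prox1 in cortical Vip-type cells stood at 216 CPM in late replicate 1, a kit A pool (233 cells, 277 UMIs), and elsewhere at 314 to 367 CPM.

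The difference between cortex and striatum was itself different in Sst-type and Pvalb-type cells for 4 of 8 members tested, where 24.2% of all genes were called. On the log2 scale, the effect in Sst-type cells minus that in Pvalb-type cells was 3.96 for Maf, -1.82 for Lhx6, -1.49 for Satb1 and -1.12 for Sox6. The other 4 were not called by edgeR (adjusted p = 0.0938 for Prox1, 0.134 for Nkx2-1, 0.196 for Nr2f2 and 0.951 for Npas1). At least 1 of the groups compared held 3 or fewer UMIs for each of them, so no size is given and the missed threshold says nothing of whether their region effects differ.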

How the results depend on the processing

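The count of members called stayed within 1.5 times the reported count in all 154 alternatives run for it, and in all 33 run for the counts of members without overlap. For the stage and hemisphere comparisons the reported count was 0 and few genes of any kind were called, so staying at 0 says little. The region counts include members that had to differ. The split of Pvalb-type and Sst-type from Vip-type and Lamp5-type cells gave 6 members in each, Pvalb-type against Sst-type 2 or 3, and Vip-type against Lamp5-type 3 to 6. Of the single log2 differences under an alternative, 368 kept their call and 5 newly passed, all of Lhx6 in Pvalb-type cells between regions: the adjusted p was 0.0470 with a stricter cell filter, 0.0350 with cortical cluster 7 alone, and 0.0348, 0.0479 and 0.0339 without cortex late replicate 1, cortex late replicate 2 and striatum late replicate 1. Sox6 in Pvalb-type cells ranged from -0.31 to 0.19 and was never called.

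Of the median levels under an alternative, 224 stayed within the spread between pools and 10 moved beyond it. Assigning cells by 1 gene in place of clusters moved 9: in Lamp5-type cells Lhx6 (from 0 to 13.9 CPM), Nkx2-1 (0 to 2.92), Adarb2 (454 to 314), Nr2f2 (285 to 213) and Npas1 (49.8 to 13.4), in Vip-type cells Nr2f2 (245 to 360) and Npas1 (198 to 276), and in striatum Adarb2 in Pvalb-type (1.58 to 3.88) and Npas1 in Sst-type cells (0 to 0.880). Clustering with the 9 genes kept moved Maf in striatal Th-type cells from 19.5 to 26.3 CPM. The cause was not tested.

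Replicate numbers follow accession order and pair no samples. With the replicate block in place of the kit, 0 members were called in each of the 6 stage comparisons. With 2 pools per stage, and no early pool of kit A, the kit term rests on control and late pools. The alternatives with cortical cluster 7 or 9 alone and the fit over both subclasses were chosen after seeing the data.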
